A study of Mus musculus with 5 samples.

Results

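The genes described here encode core splicing factors and nuclear RNA-binding proteins, in livers of mice with a mutation in Pitx3. They were chosen by the gene symbol of the array's annotation: every probe whose symbol starts with Srsf, Sfrs, Snrp, Sf3a, Sf3b, U2af, Prpf, Hnrnp or Hnrp. This gave 79 of 20355 probes and 50 of 9930 named genes. The mutants were 5 males aged 17 weeks, of the strain labelled Pitx3eyl-/-, and their liver RNA was compared with a pool of wild-type RNA on 2-colour cDNA arrays. There was 1 array for each mutant, and the pool was the second channel on all 5. The mutant dye was Cy5 for replicates 1, 2 and 4 (the Cy5 arrays) and Cy3 for replicates 3 and 5 (the Cy3 arrays). The labels give the pool as 4 animals in one field and as 6 in another, and they give no age or sex for it. Pitx3 encodes a homeodomain transcription factor known for its roles in the lens and in midbrain dopamine neurons.

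Introns are removed from nuclear transcripts by the spliceosome, a machine of small nuclear RNAs and many proteins. Sm and other snRNP proteins wrap the small nuclear RNAs, the SF3 complex and the U2 auxiliary factor place the U2 particle at the end of an intron, and PRP factors assemble and remodel the machine. SR proteins bind exons and promote their inclusion, while hnRNP proteins coat nuclear transcripts and often hold exons back. Most of these genes are broadly expressed, liver included.

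All values are deposited log2 ratios between both channels. A positive ratio is read as higher in the mutant. That direction is likely and not stated: the labels list the mutant as the first channel, and a code for unmeasurable ratios had a positive sign wherever Cy5 marked the mutant (3 arrays) and a negative sign on the 2 Cy3 arrays, as if the swapped arrays had been turned before deposit. Between 13576 and 15892 of 20355 probes had a value on an array, the array medians lay between -0.19 and 0.23, and no brightness or background value was used here. Over all probes, arrays of the same dye orientation had Pearson r between -0.02 and 0.11. Pairs of opposite orientation all had r below 0, between -0.26 and -0.05, and the sign of the Cy3 arrays enters every estimate below. The lowest r of any pair was -0.26, between replicate 1 (Cy5) and replicate 5 (Cy3), and over 49 splicing probes this pair had r of -0.49; all arrays share the pool. A ratio gives no level, so the tissue could not be checked by abundance. Of 12 hepatocyte markers, 9 were on the array, all 9 with a value. The probes of the 7 tested had model estimates of the log2 ratio from -1.55 to 1.13, with a median of 0.03. Since the RNA came from whole organs, fewer cells of a type and less RNA per cell cannot be told apart.

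Of the 79 splicing probes, 28 had a value on all 5 arrays, 21 on 4, 27 on 1 to 3 and 3 on 0 arrays. Full coverage was thus reached by 35.4% of these probes and by 31.3% of all probes. Testing required 4 values or more and at least 1 in each dye orientation, and 49 probes of 36 genes met this. The 14 genes with no tested probe included Srsf2, Srsf9 and Srsf10 among the SR proteins and Snrpa and Snrpa1, of the U1 and U2 particles. They also included Hnrnpa3, Hnrnpd and Hnrnpl among the hnRNP proteins, and Prpf19, the ubiquitin ligase of the activated spliceosome. The only probe of Srsf2 had no value on any array.

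No splicing factor transcript passed the test for a difference between mutant livers and the pool. limma, a linear model with a dye term, called 0 of the 49 splicing probes at an adjusted p under 0.05, against 0% of all 11300 probes, and the adjusted p was 0.999 for every one. At an unadjusted p under 0.05 there was 1 splicing probe (2.04%), of Prpf38b, against 4.16% of all probes. It lay above 0; probes above 0 with such a p made up 2.35% of all 11300. The mutant coefficient, which weights both dye orientations equally, was above 0 for 25 and below 0 for 24 of the probes. Its median was 0.03, against 0.04 over all tested probes. With the probes of a gene averaged, limma called 0 of 38 genes, against 0% of all 6706, and 1 gene, Snrpb, had an unadjusted p under 0.05, against 3.94% of all genes. The pool counts as 1 control sample, so the spread between wild-type animals is in none of the errors given, and p-values measure the spread between these 5 arrays only.

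**Figure D1:**
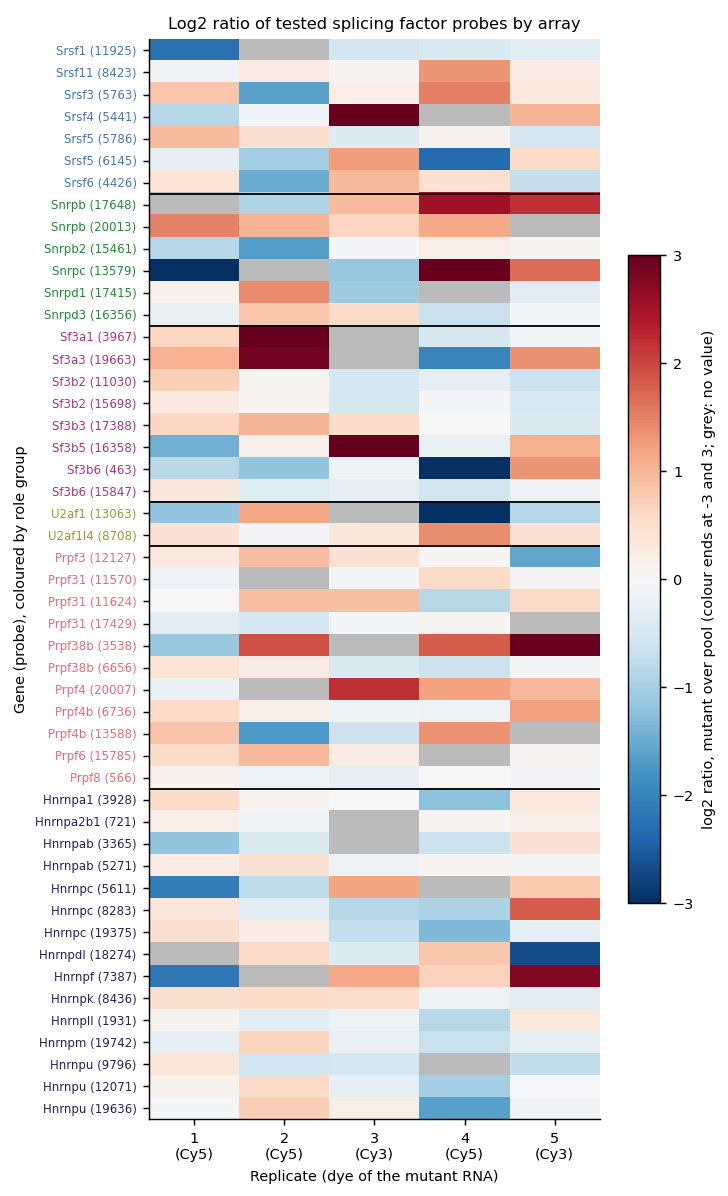
Log2 ratios of the 49 tested splicing probes (rows, gene and probe number, coloured by role group) on the 5 arrays (columns, with the dye of the mutant RNA); red is above 0, blue below 0, grey without a value. As deposited, no row with 5 values has 1 sign throughout, and the lowest value is -7.18, of Sf3b6 probe 463 on replicate 4.

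Among the SR proteins, 12 probes of 9 genes were on the array and 7 were tested, 4 above and 3 below 0 with a median coefficient of 0.03, and 0.29 without replicate 2. With the sign of the Cy3 arrays turned, the other reading of their direction, 3 lay above and 4 below 0. Srsf1, the first SR protein described and a general activator of exon inclusion, had log2 ratios of -2.24, -0.58, -0.45 and -0.32 on replicates 1, 3, 4 and 5. All 4 values lay below 0, with replicate 1 far below the others, and its coefficient was -0.89 ± 0.44 (SE). Its value on replicate 2 is missing, and its other probe had no value on any array. Srsf4 had -0.85 and -0.08 on its Cy5 arrays and 3.03 and 1.03 on its Cy3 arrays. The dye coefficient, -1.25 ± 0.48, exceeded the mutant coefficient in size, 0.78 ± 0.48, and the adjusted p for dye was 0.696 in limma. Srsf11, an SR-related protein, had -0.09, 0.26, 0.08, 1.33 and 0.23 on replicates 1 to 5. Replicate 4 alone stood above the rest, and the coefficient was 0.33 ± 0.33. Its SD over 5 arrays was 0.56, and 0.64 with the Cy3 arrays turned.

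Srsf5 showed how far probes of 1 gene could part. Its probe 5786 had 0.94, 0.47, -0.39, 0.10 and -0.51 on replicates 1 to 5, and its probe 6145 had -0.25, -1.03, 1.26, -2.31 and 0.55. The signs were opposite on all 5 arrays, so 0 arrays had the same sign in both. The coefficients were 0.03 ± 0.28 and -0.15 ± 0.40, and probe 6145 was among the 3 splicing probes with an unadjusted p under 0.05 for dye in limma (dye coefficient -1.05 ± 0.40).

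Of the snRNP proteins, 12 probes of 8 genes were on the array and 6 were tested, 5 above and 1 below 0 with a median of 0.17. Without replicate 2 it was -0.09, over a set that also took in Snrpa1, as 3 values then sufficed. Snrpa1 had -1.54, -1.47 and -0.40 on replicates 1, 3 and 5. Turned, 2 of the 6 lay above and 4 below 0, with a median of -0.09. Snrpb, which encodes the SmB protein of the ring around the small nuclear RNAs, had values above 0 on most arrays. Its probe 20013 had 1.48, 1.02, 0.65 and 1.15 on replicates 1 to 4 and no value on replicate 5. All 4 lay above 0, and the coefficient was 0.93 ± 0.37 (SE), with a 95% interval from -0.07 to 1.93 and an unadjusted p in limma of 0.0608. Its probe 17648 had no value on replicate 1 and -0.91, 0.94, 2.53 and 2.19 on replicates 2 to 5. Replicate 2 lay below 0 and the others above, and the coefficient was 1.19 ± 0.70. The mean of both probes was above 0 on all 5 arrays, at 1.48, 0.06, 0.79, 1.84 and 2.19, though replicates 1 and 5 each rest on 1 probe. Its coefficient was 1.31 ± 0.41, with an unadjusted p of 0.0224 and an adjusted p of 0.998 in limma over all genes. Of 26 splicing genes with 5 values, Snrpb was the only one with 1 sign throughout (3.85%), against 5.65% of all genes. With the Cy3 arrays turned Snrpb had both signs, and 0 of the 26 genes had 1 sign, against 8.38% of all. Snrpn, which encodes a closely related Sm protein, had -0.88 on replicate 3 and -0.17 on replicate 4. Whether its transcript binds the Snrpb probes was not tested.

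Other Sm and snRNP genes lay closer to 0 or varied widely. Snrpb2, of the U2 particle, had -0.86, -1.65, -0.07, 0.21 and 0.03 on replicates 1 to 5, with a coefficient of -0.39 ± 0.36. Snrpd3, another protein of the Sm ring, had -0.19, 0.81, 0.55, -0.66 and -0.05, with 0.12 ± 0.34. In both genes the arrays above and below 0 included both dye orientations. Snrpc, of the U1 particle, ranged from -3.19 to 3.52 over 4 arrays, with a coefficient of 0.22 ± 1.29.

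In the SF3 complex, which holds the U2 particle at the branch point, 11 probes of 6 genes were on the array. Of the 8 tested, 4 lay above and 4 below 0, with a median of 0.06. Without replicate 4 it was 0.44, over a set that also took in an untested probe of Sf3a1. That probe had 0.63, 4.52 and 2.31 on replicates 1, 2 and 3. Turned, 5 of the 8 lay above and 3 below 0. Of genes with several tested probes, Sf3b2 had the pair that came closest. Its probe 11030 had 0.71, 0.05, -0.52, -0.28 and -0.64 on replicates 1 to 5, and its probe 15698 had 0.29, 0.07, -0.47, -0.06 and -0.45. The signs were the same on all 5 arrays and the values differed by 0.18 on average. A further probe, not tested, had a value on replicate 5 only, -1.67, below both. The coefficients were -0.21 ± 0.29 and -0.18 ± 0.26 (SE), each under its error, and the 95% interval of probe 15698 ran from -0.83 to 0.47.

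The other named SF3 subunits spread more. Sf3b5 had -1.44, 0.16 and -0.23 on the Cy5 arrays and 3.75 and 1.06 on the Cy3 arrays. The orientations did not overlap, and the dye coefficient, -1.45 ± 0.51, was larger than the mutant coefficient, 0.95 ± 0.51. Sf3b6, which contacts the branch point adenosine, had the widest values of all splicing probes: its probe 463 had -0.83, -1.18, -0.10, -7.18 and 1.33. Its value on replicate 4 was the lowest of any splicing probe on any of the 5 arrays, and its values over the other 4 arrays ran on both sides of 0. The other probe of Sf3b6, 15847, had -0.56 on that array and 0.34, -0.37, -0.29 and -0.10 on replicates 1, 2, 3 and 5. The coefficients were -1.22 ± 1.06 and -0.19 ± 0.29. Sf3a3 had 1.03, 2.90, -1.98 and 1.38 on replicates 1, 2, 4 and 5, with a coefficient of 1.02 ± 1.04.

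The U2 auxiliary factor was represented by 2 probes, with a median of -0.24. Without replicate 5 only U2af1l4 could be tested, at 0.47, since U2af1 had no other Cy3 value. U2af1, the small subunit, which reads the last bases of an intron, had -1.17, 1.17, -3.29 and -0.86 on replicates 1, 2, 4 and 5, with a coefficient of -0.98 ± 0.95. Its relative U2af1l4 had 0.44, -0.04, 0.35, 1.396 and 0.44 on replicates 1 to 5. Replicate 2 was the only array not above 0, and the coefficient was 0.50 ± 0.33 (SE), with an unadjusted p in limma of 0.186.

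Of the PRP factors, 20 probes of 11 genes were on the array and 11 were tested, 6 above and 5 below 0 with a median of 0.09. Prpf8, the scaffold at the heart of the spliceosome, had 0.13, -0.17, -0.28, 0.01 and -0.05 on replicates 1 to 5. Its SD was 0.16, the smallest of the 28 splicing probes with 5 values as deposited; with the Cy3 arrays turned it was also 0.16, and that of Hnrnpab probe 5271 was 0.15. The coefficient was -0.09 ± 0.26, with a 95% interval from -0.74 to 0.57. The SE also draws on limma's prior SD of 0.85, estimated over all probes.

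Prpf38b gave the one unadjusted p under 0.05, which did not hold in every setting. Its probe 3538 had -1.14, 1.94, 1.83 and 4.08 on replicates 1, 2, 4 and 5, with a coefficient of 2.48 ± 0.78 (SE), unadjusted p of 0.0308 and adjusted p of 0.999 in limma. Replicate 1 lay below 0, and replicate 5, the only Cy3 array with a value, stood far above the rest. The unadjusted p was 0.110 without the dye term, where Snrpb probe 20013 had 0.0153, and it was 0.0721 without replicate 2 and 0.0772 without replicate 4, by limma. The other tested probe, 6656, had 0.41, 0.26, -0.43, -0.65 and -0.03 on replicates 1 to 5, with a coefficient of -0.11 ± 0.31. A probe with 3 values had -0.77, 0.04 and 0.22 on replicates 2, 4 and 5. The 3 probes of Prpf38b thus gave no common direction.

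Proteins of the U4/U6.U5 particle were among the other PRP factors. Prpf4 had -0.19, 2.199, 1.20 and 0.97 on replicates 1, 3, 4 and 5, with a coefficient of 1.04 ± 0.44 and an unadjusted p of 0.0742 in limma. Its other probe had -1.62 on replicate 1 and 2.37 on replicate 3. Prpf6, which joins the U5 to the U4/U6 part, had 0.54, 0.96, 0.23 and 0.04 on replicates 1, 2, 3 and 5. All 4 lay above 0, with a coefficient of 0.44 ± 0.32. Prpf3 had 0.28, 0.94, 0.43, 0.03 and -1.57 on replicates 1 to 5, with -0.08 ± 0.40. The 3 probes of Prpf31 had coefficients between -0.14 and 0.38, and those of the kinase gene Prpf4b were 0.38 ± 0.34 and -0.24 ± 0.74.

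**Figure D2:**
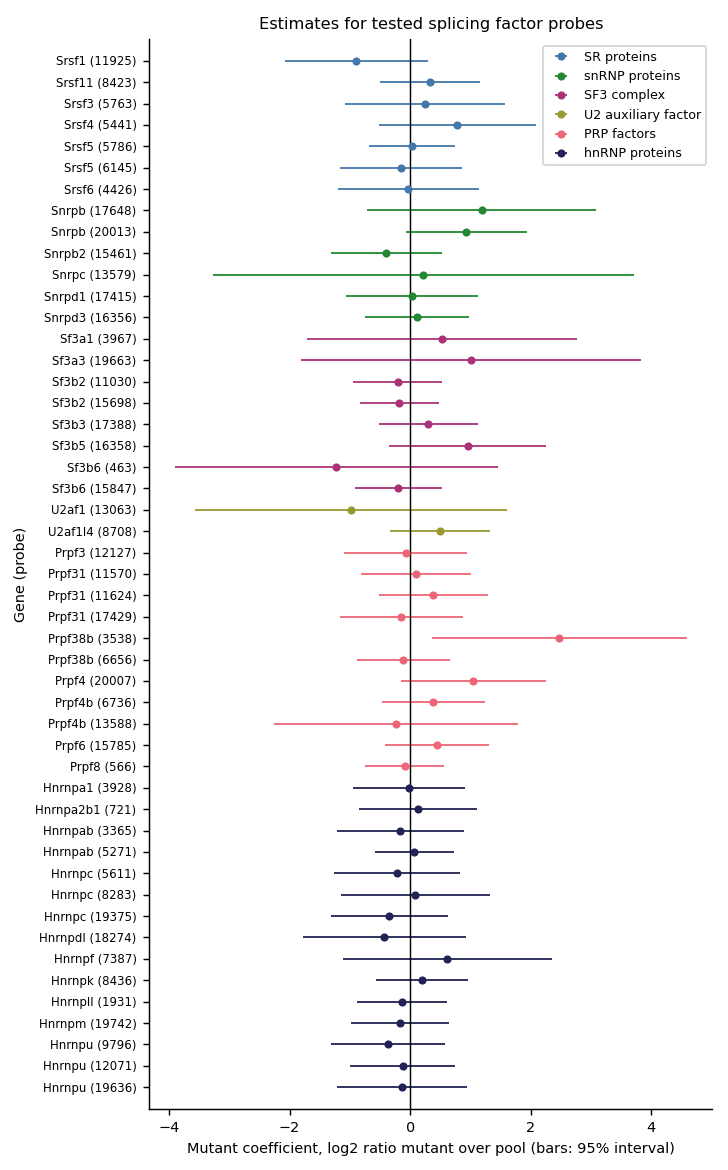
Mutant coefficients (log2 ratio, mutant over pool; points) with 95% intervals (bars) of the 49 tested splicing probes, coloured by role group. Only the interval of Prpf38b probe 3538 leaves out 0, and the intervals of 13 probes lie wholly between -1 and 1.

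For hnRNP proteins, 22 probes of 14 genes were on the array and 15 were tested, 5 above and 10 below 0, or 7 above and 8 below with the Cy3 arrays turned. Their median coefficient was -0.14, and 0.04 without replicate 4. The latter set also took in an untested probe of Hnrnpll, with -1.335, -0.467 and 4.158 on replicates 2, 3 and 5. The probe with the lowest p was 9796 of Hnrnpu, an abundant RNA-binding protein of the nuclear scaffold, with 0.36, -0.56, -0.52 and -0.75 on replicates 1, 2, 3 and 5 and a coefficient of -0.37 ± 0.35 (SE). Hnrnpf, which binds runs of G, had -2.14, 1.14, 0.70 and 2.78 on replicates 1, 3, 4 and 5, with 0.62 ± 0.64. Hnrnpab had the smallest SD of the group over 5 arrays, 0.23, with 0.21, 0.43, -0.16, 0.09 and -0.04 for probe 5271 and a coefficient of 0.07 ± 0.26. Its probe 3365 had -1.19, -0.43, -0.65 and 0.42 on replicates 1, 2, 4 and 5, with -0.17 ± 0.39, and no array on which both probes had the same sign.

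Hnrnpc, which binds runs of U and keeps cryptic exons out of transcripts, had 3 tested probes. Probe 19375 had 0.49, 0.21, -0.70, -1.33 and -0.26 on replicates 1 to 5, with a coefficient of -0.34 ± 0.38. Probe 8283 had 0.33, -0.32, -0.84, -0.96 and 1.81, with 0.08 ± 0.49. Both were low on replicates 3 and 4 and parted on replicates 2 and 5. Probe 5611 had -2.07 and -0.77 on replicates 1 and 2, both Cy5, and 1.20 and 0.78 on replicates 3 and 5, both Cy3. Its dye coefficient, -1.20 ± 0.39, had the lowest unadjusted p for dye of all splicing probes (0.0333 in limma, adjusted p of 0.618).

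On replicate 4, 11 of the 14 hnRNP probes with a value lay below the array's median of 0.11. This grouping was chosen after the values were seen, and it gets no test. The 9 probes with values on all 5 arrays, of 7 genes, had a median log2 ratio of -0.96 there, ranging from -1.62 to 0.09. All 9 lay below the array's median, as did 59.9% of all probes with 5 values. The other 5 hnRNP probes, with values on fewer arrays, had a median of 0.13: Hnrnpdl stood at 0.80, Hnrnpf at 0.70, Hnrnpul2 at 0.13, Hnrnpa2b1 at 0.07 and Hnrnpab probe 3365 at -0.65. Among the 9 were Hnrnpa1, a repressor of exon inclusion, at -1.23, and Hnrnpu at -1.62 and -1.02. Hnrnpll, known from T cell splicing, stood at -0.83, Hnrnpm at -0.66 and the C-rich binder Hnrnpk at -0.16. On the other arrays the medians of the same 9 probes were 0.21, 0.43, -0.16 and -0.04 on replicates 1, 2, 3 and 5. The 2 Hnrnpu probes with 5 values followed each other, with 0.10, 0.57, -0.26, -1.02 and -0.01 for probe 12071 and -0.03, 0.74, 0.17, -1.62 and -0.11 for probe 19636. Their coefficients were -0.13 ± 0.34 and -0.14 ± 0.43. Other splicing probes with 5 values were also low on replicate 4: all 6 of SF3 (median -0.25), all 5 of the PRP factors (median -0.15) and 23 of the 28 in all (82.1%) lay below the array's median. Of the 5 SR protein probes with 5 values, 2 did so; the 5 had medians of 0.41, -1.03, 0.20, 0.46 and 0.23 on replicates 1 to 5, lowest on replicate 2. Of the 46 cytosolic ribosomal protein probes with 5 values, 35 (76.1%) lay below the array's median on replicate 4. So did 41 of 70 probes (58.6%) of the further splicing genes described below. The ribosomal protein probes had a median of -0.08 on replicate 4 and their lowest, -0.77, on replicate 2. Each mutant animal was hybridised once, so animal and array cannot be told apart.

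**Figure D3:**
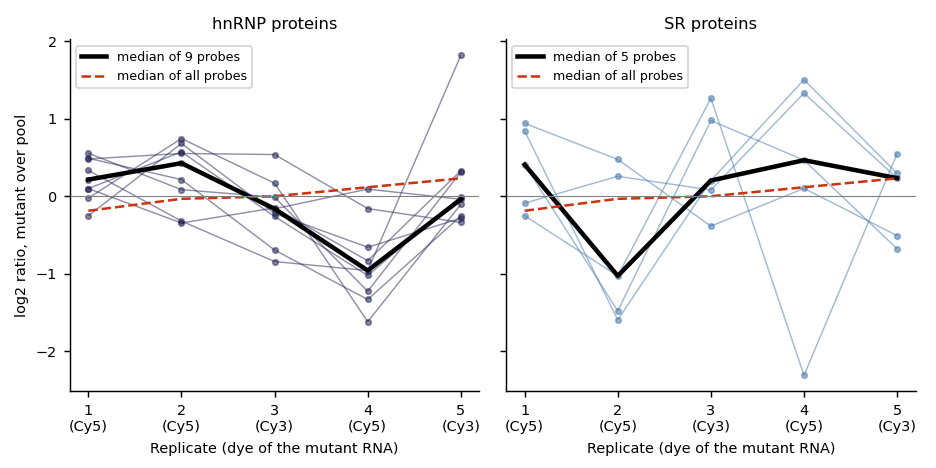
Log2 ratios of the hnRNP probes (left, 9) and SR protein probes (right, 5) with values on all 5 arrays; thin lines join the values of a probe, the black line is their median and the dashed line the median of all probes. The hnRNP median is -0.96 on replicate 4 and the SR median -1.03 on replicate 2.

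Probes of the same gene differed by 0.18 to 2.45 on average over the arrays they share, in 16 pairs of tested probes from 10 splicing genes. The median of these mean differences was 0.88, against 1.30 over 1777 pairs of all genes. Their coefficients had the same sign in 8 of 16 pairs (50.0%), against 51.6% over all genes. On the shared arrays, 46.3% of the paired values had the same sign, against 51.6% over all genes. Sf3b2 and 1 pair each of Prpf31 and Hnrnpu came within 0.30, at 0.18, 0.22 and 0.28. The widest was Prpf38b, at 2.45. Pairs of a gene with 3 probes share values and are not independent.

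**Figure D4:**
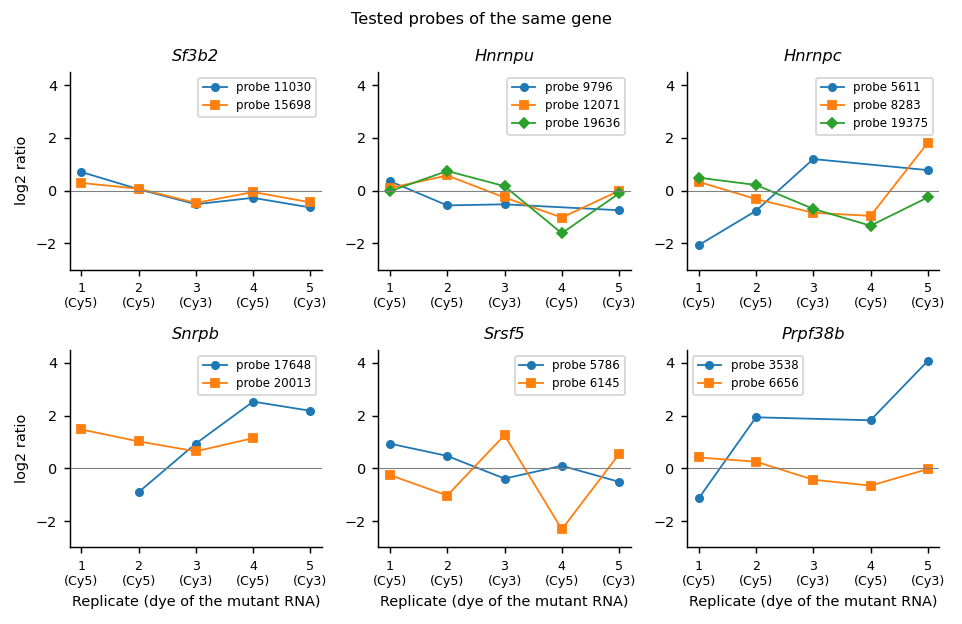
Log2 ratios of the tested probes of 6 splicing genes by replicate (with the dye of the mutant RNA); lines join the values of a probe. The probes of Sf3b2 lie close together on every array, those of Srsf5 have opposite signs on all 5, and those of Prpf38b are up to 4.10 apart.

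For the dye coefficient limma called 0 of 49 splicing probes, against 0% of all, and 3 (6.12%) had an unadjusted p under 0.05, against 7.38% of all. These were Hnrnpc probe 5611, Sf3b5 and Srsf5 probe 6145, each with lower values in the Cy5 orientation. It exceeded the mutant coefficient in size for 24 splicing probes (49.0%), against 52.9% of all. No splicing probe with 5 values had 1 sign on all 5 arrays (0 of 28), against 5.99% of all. With the Cy3 arrays turned there were 3, both probes of Srsf5 and Hnrnpab probe 5271 (10.7%), against 8.03% of all. Of the 21 with 4 values, 3 had 1 sign, Snrpb and Prpf6 above and Srsf1 below 0, against 10.5% of all. Turned, 5 of the 21 had 1 sign, against 16.3% of all.

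The splicing probes varied between arrays with a median SD of 0.59 (28 probes with 5 values, 0.16 to 3.27), against 0.71 over all 6364 such probes. Of the 28, 17 (60.7%) lay under the median of all. Medians were 0.54 for ribosomal proteins (46 probes), 0.55 for translation factors (20) and 1.21 for neuronal ion channels (20). For the further splicing genes described below the median was 0.71 (70 probes), with 35 (50%) under the median of all. Within the splicing probes the medians ran from 0.53 for the single U2af1l4 probe and 0.56 for SF3 to 0.996 for SR proteins. With the Cy3 arrays turned the median was 0.65 for the splicing probes and 0.71 for all, with 16 of 28 under that of all. These differences were described and not tested. The 95% interval of the mutant coefficient lay within -1 and 1, that is within a 2-fold change, for 13 of 49 splicing probes (26.5%), against 21.3% of all. For the other splicing probes the interval reached a 2-fold change in at least 1 direction.

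**Figure D5:**
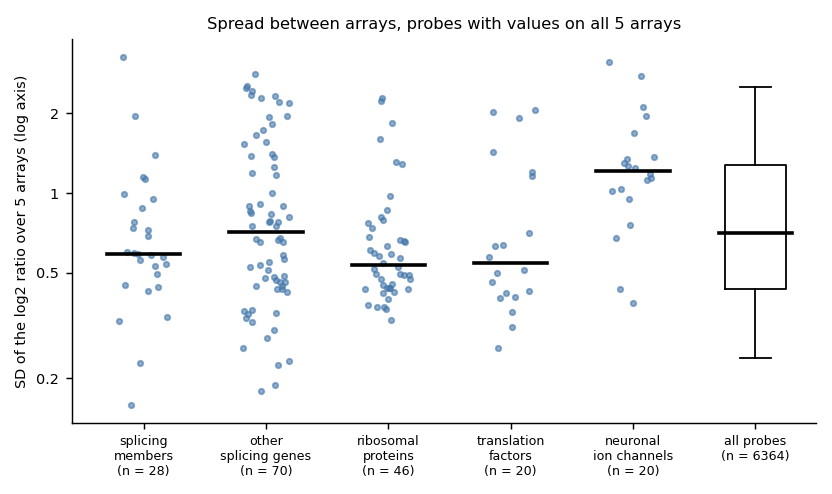
SD of the log2 ratio over 5 arrays (log axis) for probes with values on all 5; each point is a probe, the thick bar the median, and the box for all probes spans the quartiles with whiskers from the 5th to the 95th percentile. The splicing members have a median of 0.59, between ribosomal proteins (0.54) and all probes (0.71). That of the other splicing genes is 0.71.

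Values at the ratio of small whole numbers were less frequent in splicing probes than in all. Such values, at an array's constant plus the log2 of a ratio of whole numbers up to 20, include coincidental matches. They made up 21.5% of 284 splicing values, against 26.0% of all. Over all probes with 5 values the median SD was 0.63 with 0 such values and 1.33 with 4, and it was 0.54 for the 11 splicing probes with 0 and 0.67 for the 14 with 1 and 0.60 for the 3 with 2.

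The further splicing genes, a list of helicases, kinases, exon junction and Sm-like proteins and RNA-binding proteins not covered by the symbols above, were measured with 109 tested probes of 83 genes. limma called 0 of them, 7 (6.42%) had an unadjusted p under 0.05 against 4.16% of all, and 60 lay above and 49 below 0 with a median of 0.06. Gemin4, a partner of the SMN complex that loads Sm rings, had -0.13, 0.08, 1.90, 0.93 and 2.03 on replicates 1 to 5, with a coefficient of 1.13 ± 0.30 (SE). Its dye coefficient was -0.84 ± 0.30. Wbp4 had 2.19 ± 0.55 with 5.43 on replicate 3, the only Cy3 array with a value, and -2.19, -0.86 and -0.09 on replicates 1, 2 and 4. Ddx39a, an RNA helicase of mRNA export, had 1.39 ± 0.58. Below 0 stood Casc3, of the exon junction complex, at -2.62 ± 0.63, and Txnl4b at -2.46 ± 0.65. Casc3 had -5.15 on replicate 3, again the only Cy3 value, and -1.41, 1.22 and -0.10 on replicates 1, 2 and 4. Txnl4b had -3.36, -0.72, -2.71 and -2.67 on replicates 1, 2, 4 and 5, all below 0. Cwc22, which brings the exon junction complex to the spliceosome, had -3.10, -1.09, -3.07, -0.09 and -0.82, with -1.69 ± 0.59, the only one of these 6 with 1 sign on 5 arrays. Other probes of these genes lay nearer 0, at -0.24 ± 0.36 for Gemin4, 0.39 ± 1.01 for Wbp4, and 0.39 ± 0.36 and -0.22 ± 0.65 for Casc3. All 6 named probes had a limma adjusted p of 0.999.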

How the data were processed

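Liver RNA of 5 mutant mice was measured against a wild-type pool on 2-colour cDNA arrays; 20 µg of total RNA were labelled indirectly with Cy3 or Cy5, per the labels' protocols. The deposited values are log2 ratios, 1 column per array; how they were scanned, corrected for background and normalized is not given in the sources used here. That they are log2 was read from the values. Values of absolute size over 12, 1 code per array (80 to 213 values; 2 on splicing probes), were set to missing. Symbols came from the platform's annotation: 14030 probes carried 1 symbol, 5 several and 6320 are unnamed here. The gene identifiers of all 79 splicing probes were in a RefSeq gene table (GRCm38.p6, used for names only), which changed 0 symbols.

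limma (version 3.58.1, R 4.3.3) was run with lmFit and eBayes over all 11300 probes with at least 4 values and both dye orientations, with an intercept (mutant coefficient, tested against 0) and a dye term. The residual degrees of freedom were at most 3, to which the prior added 2.24. P-values were adjusted by Benjamini-Hochberg over all probes, with a threshold of 0.05. The code was tested on simulated data. Named genes are, per role group, the 3 probes with the lowest p and those with the smallest and largest SD, the 3 with the lowest dye p, other probes of those genes, any called or 1-sign probe, and 3 further splicing genes on each side of 0. Hnrnpa1, Hnrnpa2b1, Hnrnpdl, Hnrnpk, Hnrnpll, Hnrnpm, Hnrnpul2, Prpf4b, Prpf31, Sf3a1, Snrpc, Snrpn, the untested genes and the untested or further probes of named genes were named beyond this rule, after their values were seen. Members, lists and tests were chosen with earlier results of these data known. Alternatives were other filters, scalings, dye handling and leaving out each array.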

Additional observations from a re-analysis of the deposited data

Results flagged for a closer look

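Within the 49 tested splicing probes and the medians of the role groups, 56 sets of 4 or 5 array values were looked at for a single array far from the others, which chance flags in about 1 of 20 sets. It was seen in 3. The medians, of the role groups and of all splicing probes, are built from the same probes. That of the U2 auxiliary factor is the single U2af1l4 probe again. The sets are thus not independent, and the rate is only a rough guide. Srsf11 had 1.33 on replicate 4, with the next value at 0.26. Srsf1 had -2.24 on replicate 1, with the next at -0.58. The median of the 5 SR protein probes with values on all arrays was -1.03 on replicate 2, with the next at 0.20.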

How the results depend on the processing

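No setting made a call: over all alternatives that were run, limma called 0 splicing probes and 0 of all probes. The splicing probes with an unadjusted p under 0.05 numbered 1 in the reported fit, 0 with values on all 5 arrays required, 0 with a trend and robust prior, and 3 with the Cy3 arrays turned, where the coefficient becomes the dye coefficient by construction. Which splicing probe had such a p changed as arrays were left out. It was Prpf38b 3538 without replicate 1 or 3, Snrpb 17648 without replicate 2, Srsf1 without replicate 4 and Sf3b5 without replicate 5. The median coefficient of the U2 auxiliary factor was 0.50 with 5 values required, which leaves 1 probe. That filter also gave medians below 0 for snRNP proteins (-0.14), SF3 (-0.19) and PRP factors (-0.07). Without values at whole-number ratios the medians were -0.15 for SR proteins, -0.19 for SF3, -0.02 for PRP factors and 0.55 for snRNP proteins. Arrays centred gave -0.01 for SR proteins. With the Cy3 arrays turned they were -0.18 for SR proteins and -0.09 for snRNP proteins. With an array left out, values on 3 of the other 4 sufficed, so probes entered or left and 47 to 57 splicing probes were tested. The medians then ranged from -0.0813 to 0.29 for SR proteins, highest without replicate 2. For the U2 auxiliary factor they ranged from -0.44 to 0.47, the latter without replicate 5, where only U2af1l4 remained. The medians ranged from -0.04 to 0.11 for all splicing probes, -0.09 to 0.61 for snRNP proteins, -0.18 to 0.44 for SF3, 0.10 to 0.21 for PRP factors and -0.14 to 0.04 for hnRNP proteins.

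Of 265 values of the 32 named probes under other settings, 20 had the other sign, nearly all with the Cy3 arrays turned. The 265 include settings that leave the coefficients of these probes as they were. Those are the filters on the number of arrays, coded values kept, and a trend and robust prior. The fits with an array left out, below, likewise include arrays on which a probe had no value. The coefficient was -0.011 with arrays centred for Srsf5 probe 5786, and 0.0236 without a dye term for Prpf3. With the Cy3 arrays turned it was 0.078 for Prpf8, -1.60 and 0.12 for Prpf38b (probes 3538 and 6656), -1.25 for Srsf4, -1.34 for Hnrnpf, -0.40 and 0.13 for Hnrnpc (8283 and 19375), 0.27 and 0.00858 for Hnrnpu (9796 and 12071), 0.37 and 0.28 for Sf3b2 (11030 and 15698), 0.49 for Prpf3, 8.3e-05 for Sf3b6 (15847), -0.13 for Snrpd3, -1.45 for Sf3b5, -0.37 for Snrpb (17648), -0.36 for Sf3a3 and -0.54 for Prpf4. With an array left out, 15 of 155 values had the other sign, for 10 probes: Hnrnpc 5611 ranged from -0.54 to 0.11 and 8283 from -0.58 to 0.75, Srsf5 5786 from -0.0813 to 0.13 and 6145 from -0.38 to 0.13, Prpf38b 6656 from -0.21 to 0.053, Hnrnpf from -0.0903 to 1.33, Hnrnpu 12071 from -0.30 to 0.10 and 19636 from -0.40 to 0.19, Prpf3 from -0.58 to 0.43 and Snrpd3 from -0.0883 to 0.28. Snrpb 20013 ranged from 0.87 to 0.98 and Prpf38b 3538 from 2.21 to 2.98, over the arrays that could be left out. For each, the only array with a Cy3 value (replicate 3 for Snrpb, replicate 5 for Prpf38b) stayed in, since testing required both orientations. Prpf38b 3538 had an unadjusted p in limma over 0.05 without replicate 2 (0.0721) or replicate 4 (0.0772). Its p was also over 0.05 with a trend and robust prior (0.0775) or no dye term (0.110). The cause of these changes was not tested.

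The 1-sign counts and SDs with the Cy3 arrays turned, given in the text, were added after seeing the data. The hnRNP median on replicate 4, looked at after seeing the data, was -1.07 with arrays centred, -0.66 over all hnRNP probes with a value, -0.90 without values at whole-number ratios and -0.83 with 1 mean per gene. The number of arrays limits the precision. No paired analysis was possible because the series has 1 group of arrays.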
